A study of Mus musculus with 14 samples.

Results

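The ABC transporter family was taken as the 48 rows of the deposited count table whose Ensembl identifier maps to a mouse symbol of subfamilies Abca to Abcg, out of 48794 gene rows in all. The symbol rule matched 50 rows, none of them a pseudogene, and 2 further genes were not analysed here. The 48 members comprised 16 genes of subfamily A, 8 of B, 10 of C, 4 of D, 1 of E, 3 of F and 6 of G.

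All RNA came from wild-type mice without treatment. CD45, a surface protein of leukocytes, was the marker by which cells of liver needle biopsies were sorted, with 2500, 5000, 10000 or 20000 cells per sample and 3 libraries at each number. Bulk liver tissue, 2 libraries, served as the control of the series. The labels name no strain, age, sex or number of animals. The spread behind each p-value is therefore that between these libraries, and it may be technical. Bulk liver holds leukocytes too, and in it fewer cells of a type and less RNA per cell cannot be told apart. Sorting and tissue handling went with the groups, and their effects cannot be told apart from those of cell type.

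ATP-binding cassette (ABC) proteins use the energy of ATP to move lipids, sterols, bile constituents, conjugated metabolites, peptides and drugs across membranes. In the liver, members on the bile-facing side of hepatocytes secrete sterols, pigments and conjugates, others export to blood, and a further group serves mitochondria, peroxisomes and lysosomes. Subfamilies E and F keep the ATP-binding domains but have no membrane-spanning part and act on ribosomes. In leukocytes, members are known for handling sterols, leukotrienes, drugs and peptides.

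Sequence bears on the family at its best known gene pair. Abcg5 and Abcg8 encode the partners of the transporter that secretes sterols into bile, and they are read in opposite directions, with 109 bases between their starts. The stretch between the starts is shown because both genes were at or near 0 in sorted leukocytes and high in bulk liver. It lies at chr17:84683012-84683120 and is written on the plus strand of GRCm38.p6, from RefSeq. Capitals mark 2 matches to AGATAA, a motif of GATA factors, all standing here as the reverse complement. They also mark 1 match to the TATA-box letters, likewise on the other strand.
Abcg5-Abcg8: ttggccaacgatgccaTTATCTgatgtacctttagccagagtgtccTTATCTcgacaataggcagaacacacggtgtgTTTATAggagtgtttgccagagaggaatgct
The 250 bases before the RefSeq start are also given for Abca7 and Abcf1. Abca7, which was higher in sorted leukocytes, is shown at chr10:79996244-79996493 on the plus strand. Abcf1, whose libraries overlapped by TMM, is shown at chr17:35969751-35970000 on the minus strand. Capitals mark matches to GGGCGG (a GC-box motif) on either strand.
Abca7: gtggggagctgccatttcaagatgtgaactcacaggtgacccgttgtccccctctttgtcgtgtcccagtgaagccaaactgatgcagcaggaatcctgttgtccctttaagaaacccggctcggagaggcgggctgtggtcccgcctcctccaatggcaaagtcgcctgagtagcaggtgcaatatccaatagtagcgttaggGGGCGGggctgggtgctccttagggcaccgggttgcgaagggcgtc
Abcf1: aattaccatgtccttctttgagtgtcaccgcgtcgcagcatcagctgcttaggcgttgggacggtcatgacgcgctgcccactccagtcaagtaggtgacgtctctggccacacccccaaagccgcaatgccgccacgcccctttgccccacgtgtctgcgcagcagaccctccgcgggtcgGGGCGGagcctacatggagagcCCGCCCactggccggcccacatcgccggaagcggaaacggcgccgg
Of the 48 members 36 had a RefSeq window of 250 bases before and 50 after the start, with 43 windows in all. Motifs were searched on both strands. GGGCGG stood in 46.5% of the member windows and in 35.7% of all 32851 windows. TATAAA, the TATA-box letters, stood in 16.3% of member windows and 13.6% of all, and AGATAA in 14.0% and 11.2%. CAAAGTCCA, part of an HNF4 motif, stood in 2.33% and 0.475%. Among members with a window, GGGCGG stood in 5 of 8 called higher, 8 of 15 called lower, 4 of 4 not passing and 0 of 9 untested. In the same order TATAAA stood in 0, 5, 0 and 1, and AGATAA in 0, 2, 1 and 3. The median GC content of the windows was 60.7%, 61.2%, 65% and 53.7% in these sets, against 52.7% in all windows. The part of GC content in the matches was not tested. The windows of Abcg5 and Abcg8 both hold the stretch printed above, so its matches are counted in each. The motifs were chosen with the sequences in view, and these matches are descriptions of letters.

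Total counts ran from 6723357 to 14496314 in the sorted libraries and were 7605290 and 8034138 in bulk liver. Markers went with the labels. Ptprc, which encodes CD45, averaged 2246 ± 67.6 CPM (SD, n = 12) in sorted leukocytes and 21.2 ± 5.44 CPM (SD, n = 2) in bulk liver. Alb, the hepatocyte gene for albumin, averaged 43.2 ± 7.47 CPM in sorted leukocytes and 42918 ± 1124 CPM in bulk liver. CPM is the count as a share of the scaled library size, with TMM factors (trimmed mean of M values). Summed over 8 hepatocyte markers, the level in single sorted libraries ranged from 79.4 to 129 CPM, 0.0992% of the bulk mean, and all 8 had counts in sorted libraries. The part of residual hepatocyte RNA in the low levels of liver genes described here was not tested.

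Expression of the family was broad in sorted leukocytes and in bulk liver. A mean of at least 1 TPM (a level per transcript length) was reached by 22 members in both, by 8 in sorted leukocytes alone and by 7 in bulk liver alone. The other 11 stayed under 1 TPM in both. Some members lay close to this bound. In bulk liver Abcb9 averaged 0.935 TPM, Abcg3 0.995 TPM and Abcc9 1.095 TPM. The matching shares of all genes are not given here, so nothing is read from the 8 and the 7. Abca15 and Abca16, neighbours on chromosome 7, had 0 counts in all 14 libraries. At least 1 count in every library was seen for 31 members over the 12 sorted libraries and for 39 over the 2 bulk libraries. Counts of 0 throughout were seen for 3 members over the sorted libraries and for 7 over the bulk libraries. The numbers of libraries are unequal, so neither pair of values ranks the groups by detection. The summed deposited TPM of all members ranged from 557 to 677 in sorted libraries and was 795 and 768 in bulk liver. No order is read from this sum, since the same sum from counts per kilobase of exon was 776 in sorted leukocytes and 612 in bulk liver.

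In sorted leukocytes the family was led, by deposited TPM, by members that act on ribosomes. Abcf1, which takes part in translation initiation, had the highest mean at 106 ± 7.68 TPM (SD, n = 12). Abce1, which splits ribosomes for reuse, followed at 60.7 ± 4.05 TPM. Abcf3 stood at 52.2 ± 7.59 TPM and Abcf2 at 49.1 ± 4.91 TPM. The means of Abce1 and Abcf3, and those of Abcf3 and Abcf2, differed by less than the sum of their SDs. All 4 were also among the 5 highest members when levels were computed from counts per kilobase. There Abcf1 averaged 68.5, below Abcf2 at 99.1 and Abce1 at 85.7, so the leading place and the order depended on the scale. Abcg1 (23.5 ± 3.19 TPM) and Abcg3 (19.8 ± 2.40 TPM) stood lower.

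Bulk liver was led by one gene. Abcd3, the peroxisomal transporter PMP70, had 292 and 275 TPM in the 2 bulk libraries, where it held 36.3% of the family's TPM. Abcg2, an exporter of drugs and urate, had 5.63 to 17.2 TPM in sorted leukocytes, against 115 and 111 TPM in bulk liver, where counts per kilobase gave 35.2 and 33.6. Such a gap of over 2 times between deposited TPM and counts per kilobase was found in 6 tested members. Abcc2, the bile-side exporter of bilirubin conjugates, averaged 50.5 ± 3.30 TPM in bulk liver (SD, n = 2) and Abcc3, its relative on the blood side, 41.3 ± 3.65 TPM. Of the 5 highest members in bulk liver, 4 were also among the 5 highest by counts per kilobase, where Abcc6 took the place of Abcf1.

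The subfamilies held unlike shares. Subfamily F held 33.7 ± 1.68% of the family's TPM in sorted leukocytes (SD, n = 12) and 9.33 ± 0.521% in bulk liver (SD, n = 2). The single E gene held 9.89% and 3.17%, subfamily A 10.6% and 6.92%, and subfamily B 13.3% and 8.13%. The reverse held for subfamily D, with 14.9 ± 1.13% in sorted leukocytes and 37.6 ± 0.518% in bulk liver, for G with 9.26% and 18.5%, and for C with 8.39% and 16.4%. The ranges of single libraries did not overlap for any subfamily, and each of the 7 directions was the same in CPM and in counts per kilobase. All shares are of the summed TPM of the 48 members. The 2 genes not analysed have symbols of subfamily B, so the share of B covers only 8 members. ABC genes with other symbols, such as Tap1 and Tap2, are not in these sums either.

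**Figure D1:**
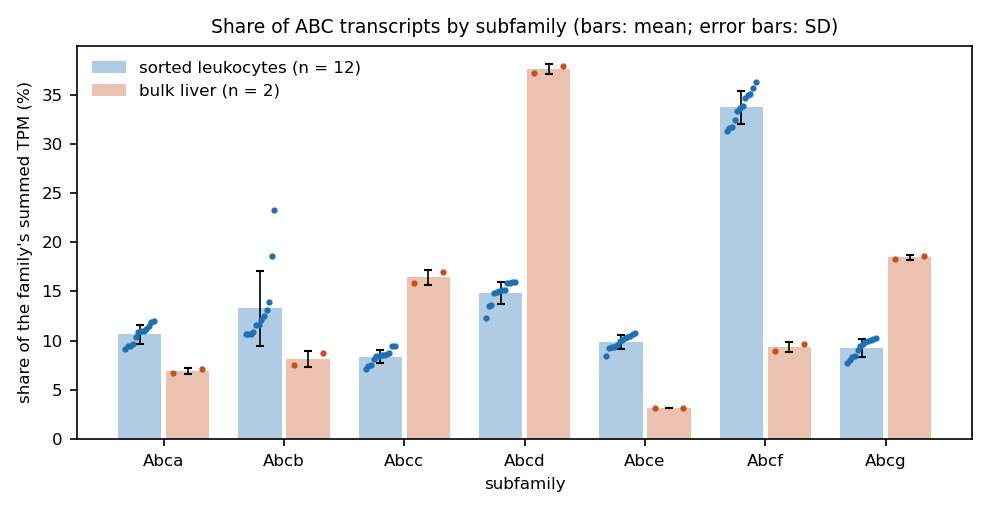
Share of the family's summed deposited TPM held by each subfamily, in percent; bars are means over 12 sorted and 2 bulk libraries, error bars SD, and points single libraries. Subfamily F takes 33.7% in sorted leukocytes and 9.33% in bulk liver, and subfamily D 14.9% and 37.6%; the 2 high points of Abcb are the libraries with high Abcb1a TPM.

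Between sorted leukocytes and bulk liver, 37 members passed the filter on low counts and were tested. Of these, 12 were higher and 19 lower in sorted leukocytes, and 6 did not pass at an adjusted p of 0.05 (quasi-likelihood F test of edgeR, Benjamini-Hochberg adjustment over 16294 genes). The 31 called members are 83.8% of those tested, near the 80.3% called among all genes. Higher calls made up 32.4% of members and 41.8% of all genes, and lower calls 51.4% and 38.5%. In 31 members (83.8%) no sorted library overlapped a bulk library, against 78.3% of all genes tested. Called differences of 4-fold or more were found in 10 members that were higher (27.0%, against 20.3% of all genes) and in 12 that were lower (32.4%, against 19.5%). The median log2 difference was -0.42 for members and 0.17 for all genes. The 11 untested members had at most 47 counts over the 12 sorted libraries and at most 5 over the bulk libraries.

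**Figure D2:**
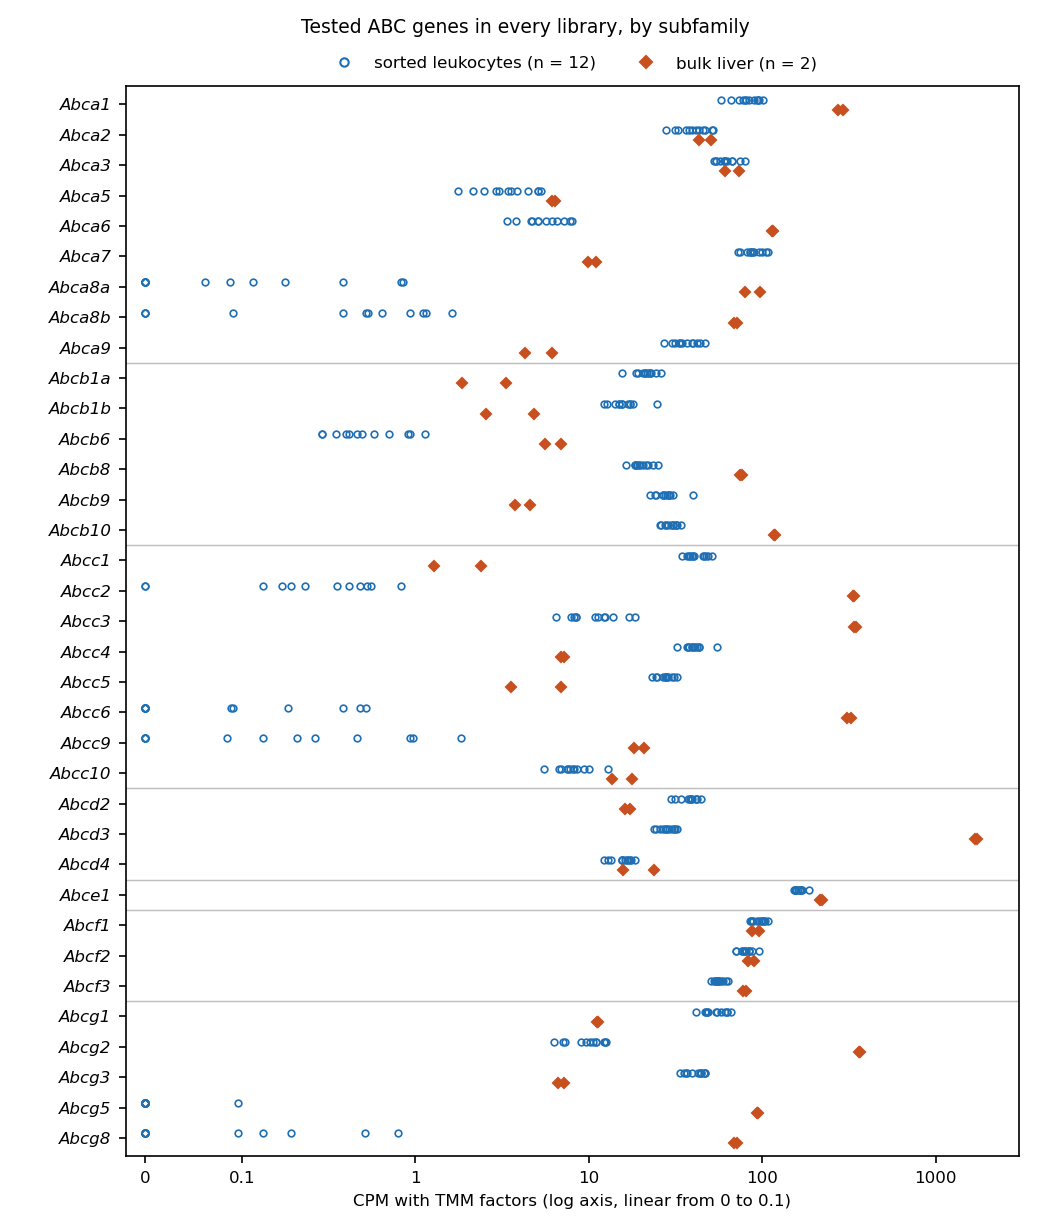
CPM with TMM factors of 35 tested members in all 14 libraries (log axis, linear below 0.1), grouped by subfamily from A to G; open circles are sorted libraries, diamonds bulk liver, and points at 0 lie on top of each other. Abcd3 stands at 23.9 to 32.2 CPM in sorted leukocytes and at 1723 and 1677 CPM in bulk liver, while the circles and diamonds of Abcf1 overlap on this scale.

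These calls are relative to the other genes, and scaling matters for members with small differences. With library totals in place of TMM factors, the median of all genes moved to 1.37 and that of members to 0.78, and 20 members were higher and 15 lower in sorted leukocytes. Of the 31 calls, 12 higher and 13 lower ones held in all 13 alternatives tried. The estimates of Abca2, Abca3, Abca5, Abcc10, Abcd4, Abce1, Abcf2 and Abcf3 turned positive with library totals, so no direction is given for these 8 genes beyond the TMM scale. The calls of Abca1 and Abcb8 were lost on deposited TPM.

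**Figure D3:**
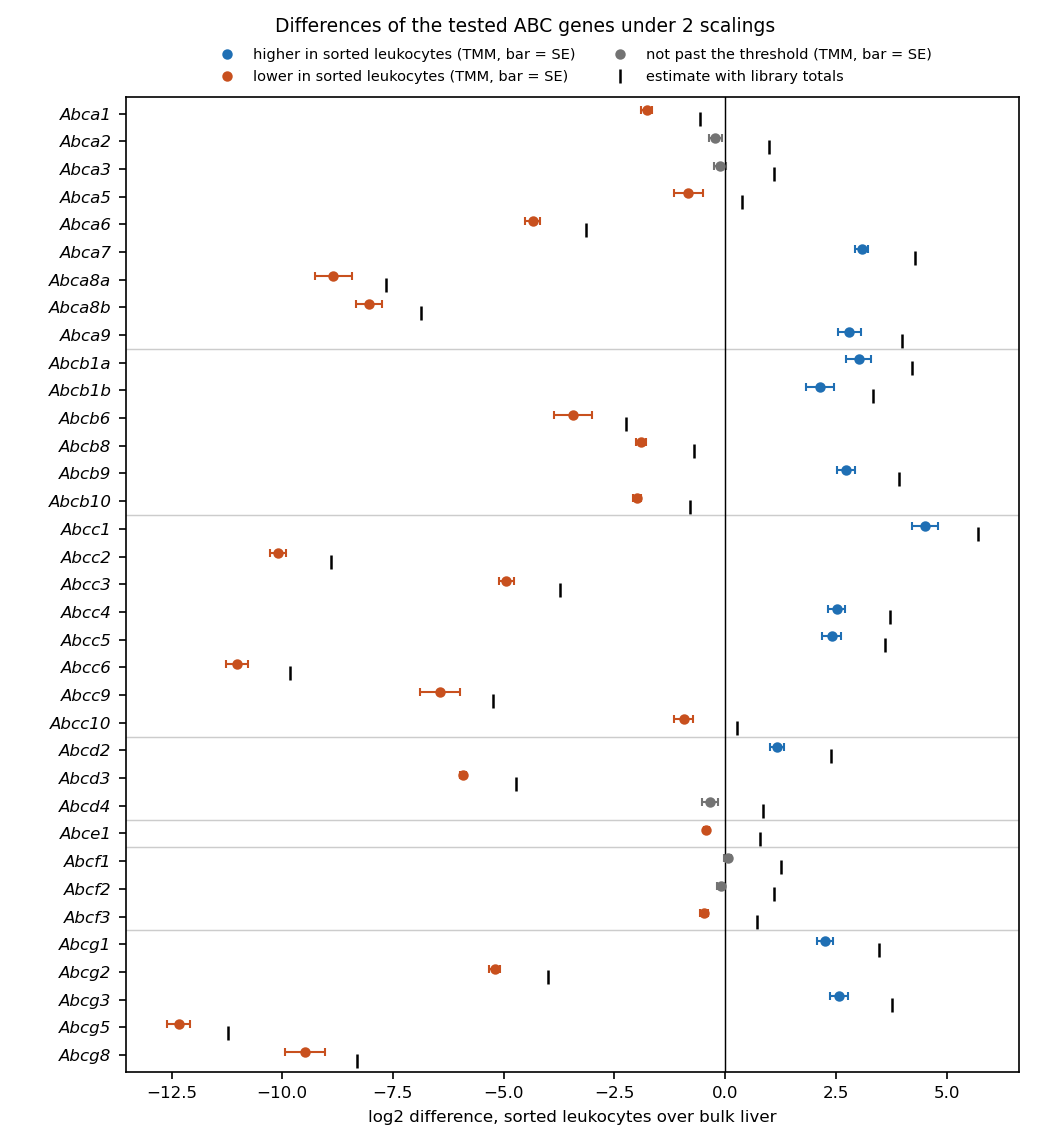
Log2 difference of sorted leukocytes over bulk liver for 35 tested members, with SE bars, by TMM (circles) and by library totals (black ticks). Abcc1 (4.52) and Abcg2 (-5.20) stay on their side of 0 under both scalings, whereas Abce1 moves from -0.42 to 0.78.

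Subfamily A holds large transporters, most of which move lipids. Of 9 tested members 2 were higher and 5 lower in sorted leukocytes, and 2 did not pass. Abca7, a close relative of Abca1 with a role in lipid export and phagocytosis, had a lowest value of 72.8, a median of 86.9 and a highest value of 108 CPM over the 12 sorted libraries, against 9.90 and 11.01 CPM in bulk liver. No sorted library overlapped with bulk liver, and the level was 3.09 higher on the log2 scale (SE 0.15; adjusted p = 2.3e-13). Its means at the 4 cell numbers lay between 80.2 and 99.3 CPM. Abca9 ran from 27.3 over a median of 35.8 to 47.0 CPM in sorted leukocytes, against 4.28 and 6.14 CPM in bulk liver. It too was higher without overlap, by 2.80 on the log2 scale (SE 0.26; adjusted p = 1.1e-08).

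Abca9 sits in a row of related genes on chromosome 11, all on the minus strand of GRCm38. The order is Abca8b (109932190 to 109995845), Abca8a (110025634 to 110095978), Abca9 (110100749 to 110168196), Abca6 (110176820 to 110251776) and Abca5 (110269369 to 110337716). The direct neighbours of Abca9 were lower in sorted leukocytes. Abca8a had a lowest value of 0, a median of 0.0748 and a highest value of 0.852 CPM in sorted leukocytes, against 97.1 and 79.3 CPM in bulk liver, a log2 difference of -8.84 (SE 0.42; adjusted p = 1.8e-11). Abca6 ran from 3.38 to 8.05 CPM with a median of 5.39 in sorted leukocytes, against 116 and 114 CPM in bulk liver, a log2 difference of -4.34 (SE 0.17; adjusted p = 1.7e-14). Abca8b was lower as well, at 0 to 1.62 CPM in sorted leukocytes against 69.0 and 71.7 CPM in bulk liver. The 2 Abca8 genes are close copies, and how reads were split between them is uncertain.

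Abca1, which loads cholesterol and phospholipid onto apolipoprotein A1 to form HDL, ran from 57.9 to 101 CPM with a median of 82.2 in sorted leukocytes, against 272 and 293 CPM in bulk liver. No libraries overlapped, and the log2 difference was -1.77 (SE 0.13; adjusted p = 2.0e-09). On deposited TPM the estimate was -0.07 (adjusted p = 0.67, limma), so this call rests on the count scale. Abca3, known for lung surfactant, was at 52.9 to 79.2 CPM with a median of 60.8 in sorted leukocytes and at 61.3 and 73.5 CPM in bulk liver. These ranges overlapped, with a difference of -0.11 (SE 0.13; adjusted p = 0.45). Abca5, a gene of lysosomes and endosomes, passed as lower (-0.83, SE 0.33; adjusted p = 0.029). Its call was lost without bulk library 1 (adjusted p = 0.14), without bulk library 2 (adjusted p = 0.18) and without library 1 of 20000 cells (adjusted p = 0.0502).

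The untested A members, Abca4, Abca12, Abca13, Abca14, Abca15, Abca16 and Abca17, were near 0. Abca4, the transporter of photoreceptors, and Abca17 each had 47 counts over the sorted libraries, against 2 and 0 counts in bulk liver. Abca13 had 23 counts over the sorted libraries, 11 of them in library 3 of 2500 cells, and 0 in bulk liver. In bulk liver all 7 were at or below the floor of 3 counts over both libraries, 0.392 CPM, and no fold is given.

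Subfamily B joins drug and peptide transporters with genes of mitochondria. Of 7 tested members 3 were higher and 3 lower. Abcb1a and Abcb1b encode the drug efflux pump P-glycoprotein. Abcb1a ran from 15.5 to 26.0 CPM with a median of 21.4 in sorted leukocytes, against 1.87 and 3.33 CPM in bulk liver. Abcb1b ran from 12.3 to 24.9 CPM with a median of 15.5, against 4.81 and 2.56 CPM in bulk liver. Sorted libraries lay above bulk ones for both genes, by 3.02 (SE 0.28; adjusted p = 6.7e-09) and by 2.14 (SE 0.32; adjusted p = 4.1e-06). Abcb9, a lysosomal peptide transporter, ran from 22.7 to 40.1 CPM with a median of 28.0 in sorted leukocytes, against 3.74 and 4.61 CPM in bulk liver. It was higher in every sorted library (2.74, SE 0.20; adjusted p = 1.9e-10).

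The deposited TPM of Abcb1a stood apart from its counts. In 10 of the 12 sorted libraries it was between 5.58 and 17.5 TPM, but library 1 of 10000 cells had 60.4 TPM and library 1 of 20000 cells 93.1 TPM. Counts per kilobase gave 12.3 and 10.9 in those 2 libraries, within the range of 9.24 to 15.4 over all sorted libraries. Abcb1a and Abcb1b are close copies, and the reason for the high TPM was not tested. The share of subfamily B in single sorted libraries, up to 23.3%, rests on these values.

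The mitochondrial members described here were lower by TMM. Abcb10, which serves heme synthesis, ran from 25.9 to 34.0 CPM with a median of 30.1 in sorted leukocytes, against 117 and 119 CPM in bulk liver (-1.99, SE 0.09; adjusted p = 7.2e-14). Abcb8, linked to iron export from mitochondria, ran from 16.5 to 25.2 CPM with a median of 19.7, against 74.4 and 76.8 CPM in bulk liver. Neither overlapped with bulk liver, but the difference of Abcb8, -1.90 (SE 0.12; adjusted p = 1.7e-11), was -0.11 on deposited TPM (adjusted p = 0.57, limma). Abcb10 kept its call in all 13 alternatives, with estimates as small as -0.27. Its mean deposited TPM was 9.49 in sorted leukocytes and 11.6 in bulk liver. Counts per kilobase gave means of 21.8 and 21.2, so the size of its difference depends on the scale. Abcb6, a porphyrin transporter, had 0.289 to 1.14 CPM with a median of 0.477 in sorted leukocytes, against 6.95 and 5.63 CPM in bulk liver, where only 26 and 22 reads were counted. It was called lower (-3.44, SE 0.43; adjusted p = 4.5e-07). Its TPM in bulk liver, 27.9 and 33.7, were 33.6 times the mean from counts per kilobase, and 55.2% of its exon bases also belong to another gene model on the same strand, so its level is uncertain. Abcb5 had 7 counts, all in 1 library of 2500 cells.

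Subfamily C, the multidrug resistance proteins and channel regulators, had no tested member that missed the threshold. All 8 tested members passed, 3 higher and 5 lower in sorted leukocytes. Abcc1, which exports leukotriene C4 and glutathione conjugates, ran from 34.3 to 51.1 CPM with a median of 40.1 in sorted leukocytes, against 2.41 and 1.28 CPM in bulk liver. It had the highest difference among the tested members, 4.52 (SE 0.29; adjusted p = 2.2e-11), a 22.9-fold higher level, and its estimates at the 4 cell numbers lay between 4.44 and 4.61. Abcc5, an exporter of cyclic nucleotides, ran from 23.2 to 32.4 CPM with a median of 27.9, against 6.95 and 3.58 CPM in bulk liver (2.40, SE 0.22; adjusted p = 5.4e-09). Abcc4, a related exporter, averaged 40.7 ± 5.45 CPM (SD, n = 12) in sorted leukocytes and 7.06 ± 0.150 CPM (SD, n = 2) in bulk liver. It was higher as well (2.52, SE 0.20; adjusted p = 4.3e-10).

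The 5 lower C members were led by exporters known from hepatocytes. Abcc2 ran from 0 to 0.826 CPM with a median of 0.293 in sorted leukocytes, against 336 and 336 CPM in bulk liver. Abcc6, needed for the release of ATP from hepatocytes and mutated in pseudoxanthoma elasticum, ran from 0 to 0.522 CPM with a median of 0.0443, against 310.0 and 326 CPM in bulk liver. Both were lower in every sorted library, with log2 differences of -10.09 (SE 0.18; adjusted p = 3.4e-19) and -11.02 (SE 0.24; adjusted p = 2.0e-16). Abcc3 kept more signal, with 6.48 to 18.4 CPM and a median of 11.04 in sorted leukocytes, against 336 and 347 CPM in bulk liver (-4.94, SE 0.17; adjusted p = 1.3e-12). Abcc9, the regulatory subunit of ATP-sensitive potassium channels in vessels, had 0 to 1.85 CPM in sorted leukocytes and 20.9 and 18.2 CPM in bulk liver (-6.45, SE 0.45; adjusted p = 7.1e-11). Its highest 3 sorted libraries were those of 2500 cells. Abcc10 passed as lower (-0.93, SE 0.21; adjusted p = 4.8e-04), but not without bulk library 1 (adjusted p = 0.0502). Abcc12 had 0 counts in sorted libraries against 5 in bulk liver, 28.0-fold lower with the sorted group set to a floor of 3 counts. Counting error of the 5 bulk counts is not in this ratio. Abcc8, the pancreatic channel subunit, had 2 counts in sorted libraries and 0 in bulk liver.

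Subfamily D serves peroxisomes and lysosomes, and its members did not move as 1 group. Abcd2, a peroxisomal transporter of fatty acyl chains, ran from 29.6 to 44.5 CPM with a median of 38.5 in sorted leukocytes, against 17.4 and 16.1 CPM in bulk liver. It was higher without overlap, by 1.18 on the log2 scale (SE 0.16; adjusted p = 1.0e-06). Abcd3, which carries branched and dicarboxylic acyl chains and bile acid precursors, ran from 23.9 to 32.2 CPM with a median of 28.1 in sorted leukocytes, against 1723 and 1677 CPM in bulk liver. Its difference of -5.92 (SE 0.06; adjusted p = 1.9e-24), a 60.4-fold lower level, had the smallest SE of the tested members, with Abce1 next. Abcd4, which moves cobalamin out of lysosomes, overlapped (-0.34, SE 0.17; adjusted p = 0.078), passed as lower without bulk library 1 (-0.55; adjusted p = 0.028), and had an estimate of 0.051 without bulk library 2.

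The estimates of the ribosome members E and F depended on the scaling. With library totals, Abce1 and all 3 F genes were called higher, and so they were on log2(TPM + 1). By TMM the differences were small. Abce1 ran from 152 to 186 CPM with a median of 163 in sorted leukocytes, against 221 and 216 CPM in bulk liver. It passed as lower by a small step (-0.42, SE 0.06; adjusted p = 2.6e-06), and with library totals the estimate was 0.78. Abcf3 ran from 50.4 to 63.7 CPM with a median of 55.9, against 77.03 and 80.4 CPM in bulk liver. Its difference of -0.48 (SE 0.09; adjusted p = 3.8e-05) turned to 0.72 with library totals. Abcf1 was at 85.2 to 108 CPM with a median of 97.6 in sorted leukocytes and at 87.7 and 96.2 CPM in bulk liver, and the ranges overlapped (0.06, SE 0.08; adjusted p = 0.53). Abcf1 passed as higher in 5 of 13 alternatives, with estimates over all 13 of -0.087 to 1.47. Abcf2 overlapped by TMM too, at -0.10 (SE 0.09; adjusted p = 0.34), and stood at 1.11 with library totals. Relative to the median of all genes, 0.17, all 4 estimates were lower on the TMM scale.

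Subfamily G, half-size transporters that act in pairs, had 5 tested members, of which 2 were higher and 3 lower. Abcg1, which exports cholesterol from macrophages to HDL, ran from 41.4 to 65.9 CPM with a median of 54.7 in sorted leukocytes, against 11.2 and 11.3 CPM in bulk liver (2.26, SE 0.18; adjusted p = 5.5e-10). Abcg3, a relative of Abcg2 found in rodents, ran from 33.7 to 47.0 CPM with a median of 43.1, against 7.22 and 6.66 CPM in bulk liver (2.57, SE 0.20; adjusted p = 3.4e-10). Both were above bulk liver in 12 of 12 sorted libraries. Abcg2 ran from 6.31 to 12.5 CPM with a median of 10.4 in sorted leukocytes, against 366 and 360.1 CPM in bulk liver, which made -5.20 on the log2 scale (SE 0.12; adjusted p = 4.9e-17). Abcg1 and Abca1, which both export cholesterol, thus went opposite ways on the count scale.

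Abcg5 and Abcg8, whose start region is printed above, were both lower. Abcg5 had 1 count over all 12 sorted libraries, against 349 and 369 counts in bulk liver. That count came from library 2 of 20000 cells, and the other 11 sorted libraries had 0. The ratio of bulk liver to sorted leukocytes, 12078, rests on this single count, and its 95% counting interval was 2161 to 477690. Abcg8 had a median of 0 and a highest value of 0.792 CPM in sorted leukocytes, against 71.7 and 68.3 CPM in bulk liver (-9.48, SE 0.45; adjusted p = 9.4e-11). In bulk liver the levels of the pair per length were 17.6 ± 0.311 TPM for Abcg5 and 11.2 ± 0.233 TPM for Abcg8 (SD, n = 2). GENCODE M21 gives their exons an overlap of 82 bases on opposite strands, and whether counting used the strand is not known here. Abcg4, untested, had 12 counts in sorted libraries and 1 in bulk liver.

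Genes that work with the family were read from related lists. Of 3 ABC genes with other symbols, Tap1 and Tap2, the peptide transporter for MHC class I, were higher. Tap1 averaged 345 ± 18.6 CPM in sorted leukocytes and 71.8 ± 1.28 CPM in bulk liver, and Tap2 207 ± 23.1 and 60.4 ± 0.711 CPM. Cftr, the chloride channel, was not tested. Among 11 hepatocyte carriers of other families, all 10 tested were lower, with a median of -10.07. Slco1b2 averaged 2.63 ± 0.792 CPM in sorted leukocytes and 2981 ± 44.2 CPM in bulk liver, and Slc10a1, the bile acid uptake carrier, 1.33 ± 0.619 and 1337 ± 4.403 CPM. Both lists had the same counts with library totals and on log2(TPM + 1).

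The regulators of ABC genes were mostly lower. Of 15 nuclear receptors and other regulators, 3 were higher, 11 lower and 1 did not pass (with library totals 6 higher and 9 lower). Srebf2, the sterol-sensing factor, was higher at 271 ± 11.7 CPM in sorted leukocytes against 123 ± 6.17 CPM in bulk liver (1.14, SE 0.07; adjusted p = 3.2e-12). Nfe2l2, a stress regulator of C members, had an estimate of -0.20 (adjusted p = 0.021) that turned to 1.01 with library totals. Of 10 sterol efflux partners 3 were higher and 6 lower, among the lower ones Apoe (1117 ± 73.2 against 38584 ± 815 CPM) and Apoa1 (33.7 ± 5.79 against 25607 ± 48.3 CPM). Of 12 organelle partners 10 were lower, 1 was higher and 1 did not pass. Lmbrd1, the partner of Abcd4 in cobalamin export, was the higher one, at 197 ± 9.92 CPM in sorted leukocytes against 143 ± 2.22 CPM in bulk liver. Of 7 translation partners 1 was higher and 5 lower by TMM, and 5 were higher and 2 lower with library totals. Eif1 averaged 248.9 ± 15.2 CPM in sorted leukocytes and 354 ± 10.5 CPM in bulk liver, and Eif2s1 114 ± 8.77 and 148 ± 8.67 CPM. Of the channel pores, Kcnj8 was higher at 10.3 ± 1.64 against 4.97 ± 0.155 CPM, and Kcnj11 had 0 counts.

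Markers of other cells moved with the same contrast. Each marker list was counted in the same fit. All 6 pan-leukocyte markers and all tested markers of monocytes (4), neutrophils (4), dendritic cells (4), T cells (5), NK cells (4) and B cells (4) were higher in sorted leukocytes. The 8 hepatocyte, 5 endothelial and 5 stellate and fibroblast markers were all lower, as were 6 of 6 Kupffer cell markers by TMM. With library totals 3 of these 6 Kupffer cell markers were higher and 0 lower, and on log2(TPM + 1) all 6 were higher. The direction of the Kupffer cell markers thus depended on the scaling. Of the other lists, 2 of 3 plasma cell markers were higher and 1 lower, 3 of 4 cholangiocyte and 2 of 2 tested erythroid markers were lower, 2 of 2 tested platelet markers did not pass, and 0 mast cell and basophil markers were tested. Summed Kupffer cell markers ranged from 316 to 555 CPM in sorted libraries and from 695 to 871 CPM in bulk liver. Which cell type carries each ABC gene was not tested.

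Differences between numbers of sorted cells were not called in the family. Of 30 members tested over the 12 sorted libraries, 0 passed for any difference between the 4 numbers, 0 for 2500 against 20000 cells and 0 for a trend per doubling of cells. In the same edgeR tests 0.297%, 0.419% and 0.0811% of 14795 genes were called (0.0608% with a rising and 0.0203% with a falling trend). At an unadjusted p of 0.05 the members numbered 4, 4 and 3 of 30. The share of all genes at that threshold is not given here, so nothing is read from these counts. DESeq2, with 45 members tested, called 0, 1 and 0, and limma-voom 0 in each. Abcd3 is an example, with means of 28.6 ± 4.07, 26.0 ± 1.74, 29.4 ± 2.78 and 28.9 ± 1.84 CPM at 2500, 5000, 10000 and 20000 cells (SD, n = 3 each).

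The genes nearest to the threshold for 2500 against 20000 cells were Abca8b, Abcb9 and Abcg1, named after their values were seen. Abca8b had 0 counts in all 3 libraries of 2500 cells, 5, 18 and 19 counts at 5000, 7, 6 and 1 at 10000, and 7, 4 and 10 at 20000. The libraries of 2500 cells lay below the other 9, 8.29-fold lower than those of 20000 cells with the group set to a floor of 3 counts. Counting error at 20000 cells is not in this ratio. The adjusted p of edgeR was 0.074. It was 0.0397 with the bulk libraries kept in the fit and 0.00107 without a filter, and Abca8b did not pass under the other alternatives. Hepatocyte markers, summed, were at 113 ± 14.6 CPM at 2500 cells and 88.7 ± 13.7 CPM at 20000 cells, and a link to the values of Abca8b was not tested.

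Abcb9 had 30.5, 28.4 and 40.1 CPM at 2500 cells, against 24.3, 24.1 and 22.7 CPM at 20000 cells. These libraries did not overlap, and the difference of 0.49 (SE 0.12; adjusted p = 0.096) passed under DESeq2 (adjusted p = 0.030). Abcg1 went the other way, with 41.4, 47.7 and 54.8 CPM at 2500 cells against 57.9, 65.9 and 62.3 CPM at 20000 cells. Its difference was -0.36 (SE 0.13; adjusted p = 0.21). Abcc9 was not tested in this fit. It had 10, 21 and 9 counts at 2500 cells and between 0 and 4 in each of the other 9 libraries. Plasma cell markers summed to 92.6 ± 12.7 CPM at 2500 cells and 168 ± 14.7 CPM at 20000 cells. Among the marker lists, 2 Kupffer cell, 1 monocyte and 1 plasma cell marker passed between these numbers, and the part of such cells in the member values was not tested.

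**Figure D4:**
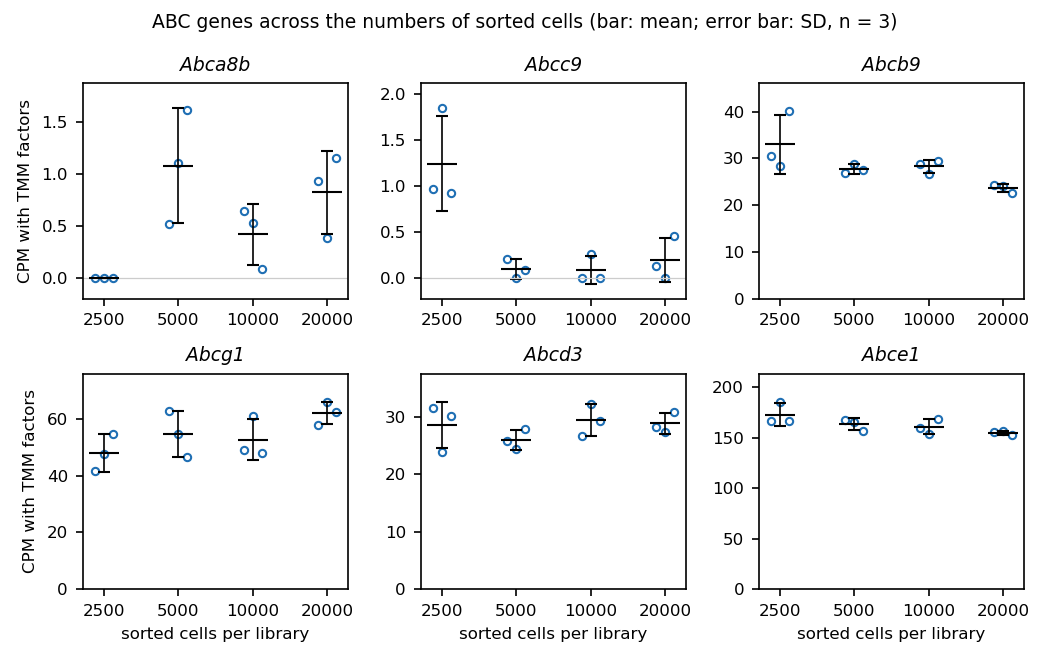
CPM with TMM factors of 6 members in the 3 libraries at each number of sorted cells (2500, 5000, 10000 and 20000); circles are libraries, bars means and error bars SD. Abca8b is at 0 in all libraries of 2500 cells, Abcc9 is highest there, and Abcd3 stays between 23.9 and 32.2 CPM throughout.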

How the data were processed

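RNA of all 14 libraries was turned into cDNA with a low-input SMART-seq chemistry, per the labels' protocols. The authors deposited raw counts per gene as whole numbers and TPM for the same genes, with 1 column per library, and variance-stabilised values that were not used. The submitters' processing notes name DESeq2 1.34.0, FastQC 0.11.5, RSEM 1.3.0, featureCounts 1.5.1, STAR 2.5.2b and GRCm38, without their roles or order, and annotation release and strand setting are not given in the sources used here. All 14 libraries were mapped by their labels and 0 columns were left over. The counts were tested with edgeR 4.0.16 in R 4.3.3 (quasi-likelihood F test, robust, TMM, filterByExpr by group). The contrast was the mean of the 4 sorted groups minus bulk liver over all libraries, and the 12 sorted libraries alone served the cell numbers. Adjustment was by Benjamini-Hochberg over all genes tested, with a threshold of 0.05. Alternatives used DESeq2 1.42.0, limma 3.58.1, other scalings, no filter, deposited TPM with pseudocounts of 1 and 0.1, and left-out libraries. The scripts were tested on simulated data. The symbol rule, the lists and the promoter motifs were chosen with earlier results of these data known. Values are given in full for the 2 members per subfamily with the highest TPM in each group, the 5 highest and 5 lowest differences, and the 2 most abundant genes of each list. Of 131 list entries 131 were matched, 1 by a synonym. Exon lengths and coordinates come from GENCODE M21, and promoters from RefSeq. Counting intervals (exact binomial, 95%) cover counting error only, and the floor of 3 counts covers only that of the group at 0. Replicates of a group differed by more than sampling noise in every pair (chi-square per degree of freedom 1.52 in bulk liver and 2.22 to 13.0 in sorted libraries). Values of 2 tested members and of 1 gene of a related list are not reported here, and they remain in counts and sums.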

Additional observations from a re-analysis of the deposited data

How the results depend on the processing

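Calls of members between sorted leukocytes and bulk liver rest on few libraries of bulk liver and on the scaling. With library totals 20 members and 10737 genes were higher and 3654 genes lower. On log2(TPM + 1), log2(TPM + 0.1) and log2(TPM + 1) without a filter, 21 members were higher in each, with 11566, 11736 and 11698 genes higher and 2703, 2666 and 3862 lower. Estimates that changed sign with library totals, log2(TPM + 1) and log2(TPM + 0.1) were those of Abca2 (0.98, 1.35, 1.60), Abca3 (1.09, 1.50, 1.65), Abca5 (0.37, 0.48, 0.86), Abcc10 (0.27, 0.65, 0.90), Abcd4 (0.86, 1.12, 1.31), Abce1 (0.78, 1.26, 1.29), Abcf2 (1.11, 1.58, 1.63) and Abcf3 (0.72, 1.39, 1.43), and without a TPM filter they were as with it. Without a filter on counts Abca3 was at 0.072 and Abcf2 at 0.083. With only 20000 cells Abca3 was at 0.031 and Abca2 at 0.047, and Abcf1 was at -0.087 with only 10000 cells, -0.058 with DESeq2 size factors and -0.039 in the DESeq2 test. Leaving out 1 library at a time gave 12 members higher each time, 18 to 19 lower, 6245 to 6934 genes higher and 5692 to 6305 lower. Abcd4 (-0.55 to 0.051), Abca3 (-0.17 to 0.093) and Abcf2 (-0.13 to 0.019) changed sign without bulk library 2, where the lone bulk library is assumed to vary like the other groups. The cause of these changes was not tested.

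Between cell numbers, genes called for any difference, for 2500 against 20000 cells and for the slope were 44, 62 and 12. They were 605, 397 and 19 without a filter, 292, 257 and 131 by DESeq2, and 28, 37 and 4 by limma-voom. With bulk libraries in the fit 76 genes were called for any difference. Without 1 library they ranged from 20 to 104, 19 to 67 and 0 to 10, with 0 members called in each. Without a filter 4 members were called for any difference (Abca8b, Abca2, Abcc9, Abca7), 1 as higher (Abcb9) and 2 as lower (Abca8b, Abcg1) at 2500 cells. DESeq2 called 1 member as higher at 2500 cells, and the fit with bulk libraries 1 as lower and 1 for any difference.

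The labels do not say whether libraries with equal replicate numbers share a source. Over 18 pairs with equal numbers the correlation of deviations ran from -0.085 to 0.0832, with none over 0.1. Over 36 pairs with other numbers it ran from -0.1 to 0.111, with 1 over 0.1. With 3 libraries per cell number this check cannot decide whether a source was shared. With the replicate number as a block, 12 members were higher and 19 lower, 0 were called between cell numbers, and 0 genes were called for the slope.

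The summed family level was 1339 CPM in sorted leukocytes and 4806 CPM in bulk liver, and 776 and 612 from counts per kilobase (an alternative added after the data were seen). Depth limits members under 3 counts per group.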
